A study of Mus musculus with 12 samples.

Results

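Cytochrome P450 genes were taken as the rows of the deposited count table whose symbol begins with Cyp followed by a digit. Of 112 such rows, 14 carry the names of pseudogenes and 45 held fewer than 50 reads over the 12 libraries, which left 53 genes among 37681 rows in the table. All 53 had enough reads to be tested, among 19399 tested genes. RNAseq was performed on a thin outer slice of kidney cortex from male C57BL/6 mice, 18 months old and untreated. The groups were 3 TG+ mice (43-29, 43-49 and 43-75, genotype TRACK/gamma-HIF1alphaM3 TG+) and 3 TG- littermates (43-26, 43-50 and 43-76), which lack the transgene. The transgene encodes a mutated, constitutively active HIF1α and is placed under a γ-glutamyl transferase (GGT) promoter, which directs it to the proximal tubule, so the other cells of the slice are not its targets. Both kidneys of each mouse were sequenced, the reads of the 2 kidneys were summed, and the comparison asks how the P450 mRNAs of the cortex differ between mice with and without the transgene.

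Cytochrome P450 enzymes are heme proteins that insert 1 atom of molecular oxygen into a substrate, with electrons from NADPH that reach them through P450 oxidoreductase or, in mitochondria, through adrenodoxin. In the kidney most of them reside in the proximal tubule. Cyp4 enzymes hydroxylate the far end of fatty acids and turn arachidonic acid into 20-HETE, many Cyp2 enzymes form epoxides of arachidonic acid or oxidize drugs and steroids, and the mitochondrial enzymes Cyp27b1 and Cyp24a1 activate and inactivate vitamin D.

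The sequenced reads on genes numbered 48052131 to 53275152 per TG+ mouse and 50570271 to 60506785 per TG- mouse. Levels are given as CPM, which are reads per 1000000 reads after TMM scaling, a step that adjusts library sizes for differences in composition. Hif1a mRNA stood at 107, 103 and 103 CPM in the TG- mice and at 91.7, 109 and 86.3 CPM in the TG+ mice, and the sources do not say if transgene mRNA adds to this value. Car9, a HIF1α target, stood at 11.7 to 17.6 CPM in TG- and at 122 to 166 CPM in TG+ mice, without overlap. The slices held proximal tubule mRNAs at high levels in both groups, with a summed level of 20 proximal tubule markers of 51464 to 55757 CPM in TG- and of 40232 to 42373 CPM in TG+ mice. In bulk tissue, fewer proximal tubule cells and less RNA per cell cannot be told apart.

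P450 mRNA made up a smaller part of the library in TG+ than in TG- kidney cortex. The summed level of the 53 genes was 10205, 11069 and 10649 CPM in the TG- mice 43-26, 43-50 and 43-76, and 6861, 6491 and 7082 CPM in the TG+ mice 43-29, 43-49 and 43-75. No TG+ mouse reached the lowest TG- mouse. Cyp4b1 alone gave 38.6% to 41.7% of this sum in TG- and 29.0% to 31.7% in TG+ mice, and the 49 genes other than Cyp4b1, Cyp2e1, Cyp2j5 and Cyp2j13 together gave 15.5% to 16.9% in TG- and 21.1% to 26.8% in TG+ mice.

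**Figure D1:**
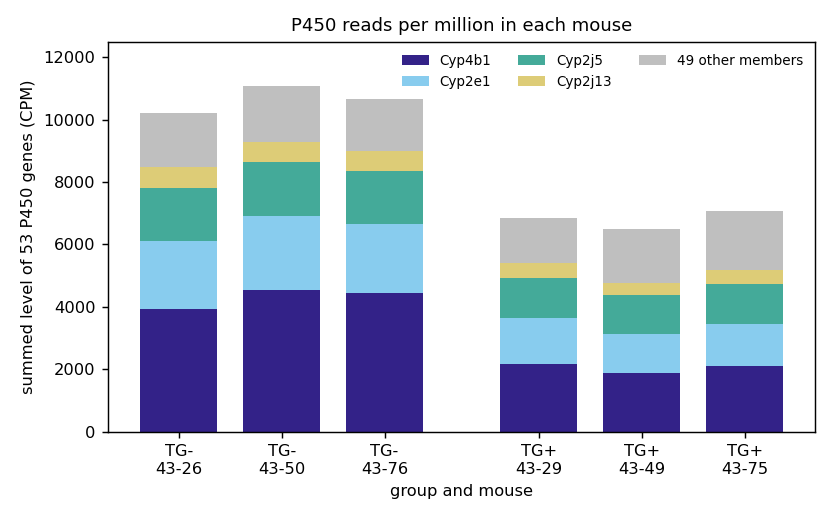
Summed level of the 53 P450 genes in each mouse, in CPM (vertical axis, from 0), stacked by the contribution of Cyp4b1, Cyp2e1, Cyp2j5, Cyp2j13 and the 49 other members; 1 bar per mouse, TG- on the left. The 3 TG+ bars end between 6491 and 7082 CPM and the 3 TG- bars between 10205 and 11069 CPM, and the dark Cyp4b1 part is lower in every TG+ bar than in any TG- bar.

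At an adjusted p below 0.01 (edgeR's quasi-likelihood test, Benjamini-Hochberg adjustment over the 19399 genes), 11 P450 genes fell and 3 rose, whereas 39 did not pass. Over all tested genes 4.25% fell and 7.91% rose at the same threshold. Without the TG- mouse 43-76 the number that fell was 5, without the TG+ mouse 43-75 it was 6, and without 43-75 or the TG- mouse 43-50 the number that rose was 1. With a fold change below 0.5 required as well, 4 genes fell (Cyp2d9, Cyp4f15, Cyp4b1 and Cyp4a12a, against 0.211% of all genes), and with a fold change above 2, 2 rose (Cyp2s1 and Cyp4f18, against 3.77%). The number 4 became 2 without the TG+ mouse 43-49 or without 43-76, and the number 2 became 1 without 43-26, 43-49, 43-50 or 43-75. P450 genes are abundant here, and 20 of the 53 exceeded 32 CPM. Of these 20 genes 9 fell and 2 rose, against 10.8% and 6.48% of the 5636 tested genes above that level. In 20 P450 genes every TG+ mouse lay below every TG- mouse and in 8 above, against 20.8% and 23.4% of all tested genes. Scaling by library size alone gave 10 P450 genes that fell and 6 that rose, and DESeq2 gave 13 and 6. The median log2 fold change was -0.22 for the P450 genes and 0.01 for all tested genes.

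**Figure D2:**
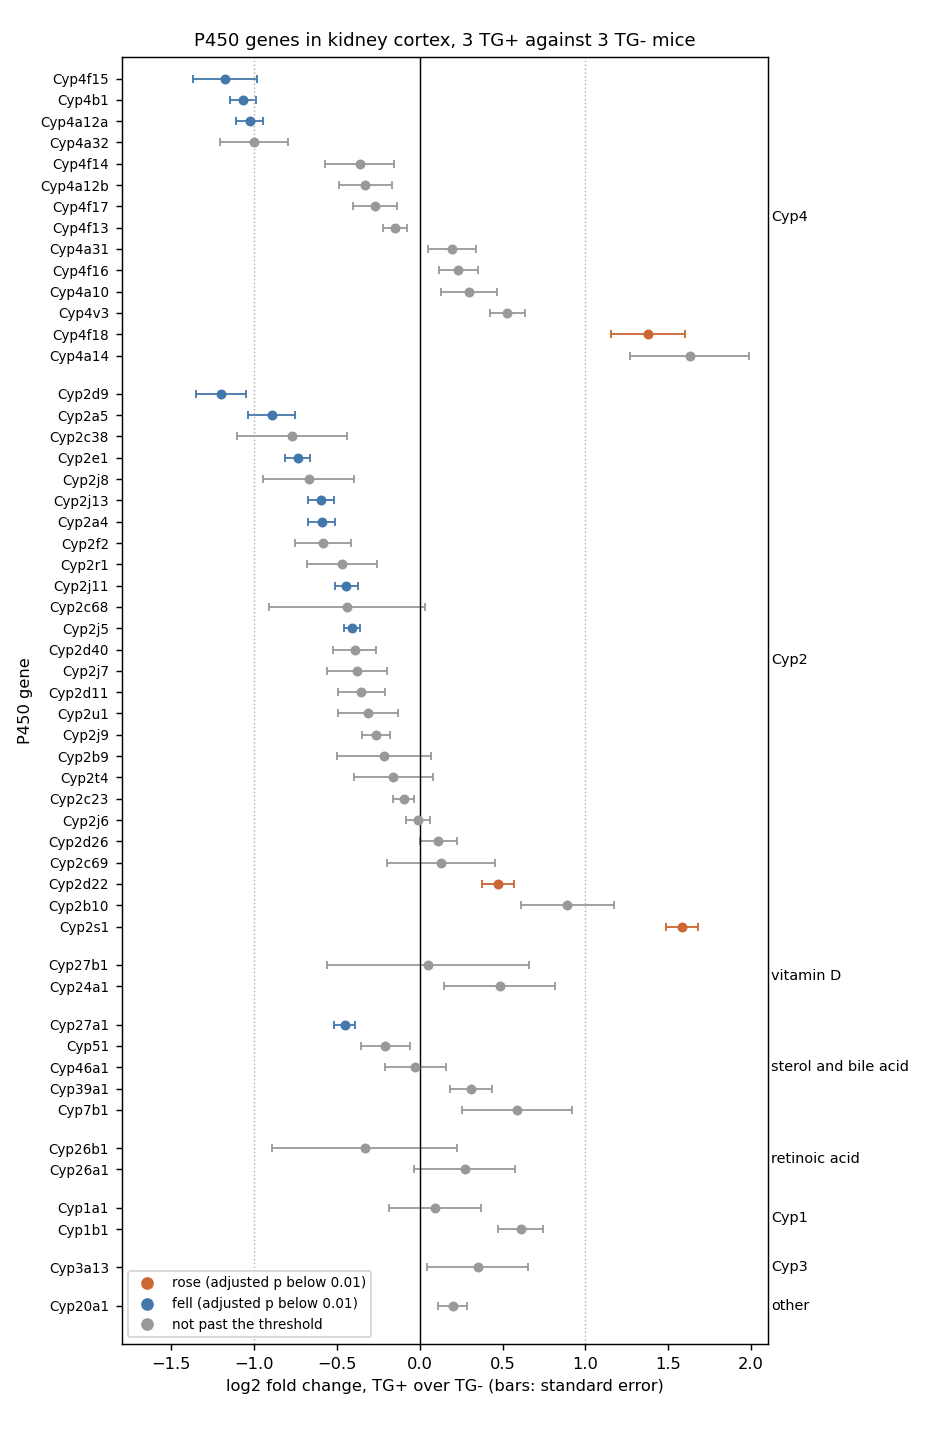
Log2 fold change of TG+ over TG- for each of the 53 P450 genes (horizontal axis; points with bars of 1 standard error), grouped by family and sorted within it; orange points rose, blue points fell and grey points did not pass an adjusted p below 0.01, and dotted lines mark a 2-fold change. Blue points lie in the Cyp4, Cyp2 and sterol groups, and values run from -1.20 (Cyp2d9) to 1.63 (Cyp4a14).

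The letters just upstream of the transcription start are shown for 4 genes on which the results turn: Cyp4b1, Cyp2d9 and Cyp2e1, which fell, and Cyp2s1, which rose. Each line gives the 250 bases before the RefSeq start, 5′ to 3′ on the gene's strand, with GRCm38.p6 positions.
Cyp4b1, chr4:115647722-115647971 (- strand): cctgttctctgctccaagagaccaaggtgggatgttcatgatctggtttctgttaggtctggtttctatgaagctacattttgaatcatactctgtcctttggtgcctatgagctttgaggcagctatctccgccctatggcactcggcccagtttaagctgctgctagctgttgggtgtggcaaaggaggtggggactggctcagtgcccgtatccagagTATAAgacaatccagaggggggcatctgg
Cyp2d9, chr15:82452127-82452376 (+ strand): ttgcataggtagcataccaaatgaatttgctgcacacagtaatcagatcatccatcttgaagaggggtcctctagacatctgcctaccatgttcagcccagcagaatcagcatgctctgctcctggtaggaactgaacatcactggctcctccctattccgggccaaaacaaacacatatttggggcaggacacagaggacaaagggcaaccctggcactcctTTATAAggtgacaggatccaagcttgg
Cyp2e1, chr7:140763569-140763818 (+ strand): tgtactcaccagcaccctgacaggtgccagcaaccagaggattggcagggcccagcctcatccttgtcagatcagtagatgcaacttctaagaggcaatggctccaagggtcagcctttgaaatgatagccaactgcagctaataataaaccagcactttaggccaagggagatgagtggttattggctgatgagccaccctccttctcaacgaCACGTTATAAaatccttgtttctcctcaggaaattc
Cyp2s1, chr7:25816526-25816775 (- strand): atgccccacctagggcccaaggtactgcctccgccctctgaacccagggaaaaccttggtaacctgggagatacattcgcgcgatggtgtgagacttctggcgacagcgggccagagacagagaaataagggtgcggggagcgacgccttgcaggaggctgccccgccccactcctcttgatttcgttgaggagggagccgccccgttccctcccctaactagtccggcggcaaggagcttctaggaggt
Capitals mark matches on either strand to the motifs searched. The HIF binding site was searched by its core ACGTG, which is the usual form. The aryl hydrocarbon receptor site, which HIF can share, was searched by its core GCGTG. The nuclear receptor motif searched was AGGTCA, which many such receptors bind. The promoter element searched was TATAA, which marks the binding site of the general transcription machinery. Cyp4b1 holds TATAA beginning 29 bases before the start and Cyp2d9 holds it at 26 bases, where the reverse complement overlaps it from 27 bases. Cyp2e1 holds TATAA at 31 bases and its reverse complement at 32 bases, which overlap, and the reverse complement of ACGTG at 36 bases, which overlaps the match at 32 bases but not that at 31. Cyp2s1 holds none of the letters searched. Of 40 members with a RefSeq entry (of 53), 40.0% held at least 1 of these 2 cores within 250 bases before to 50 bases after the start, against 43.8% of 32851 promoters. AGGTCA was found in 17.5% of the 40 and 16.3% of all promoters, and TATAA in 42.5% of the 40 and 24.9% of all.

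The Cyp4 family held 14 genes, of which 3 fell (Cyp4b1, Cyp4a12a and Cyp4f15), 1 rose (Cyp4f18) and 10 did not pass. Cyp4b1 (ENSMUSG00000028713, chromosome 4 from 115624725 to 115647723), which hydroxylates fatty acids and activates furan toxins, was the P450 mRNA with the most reads. It stood at 3938, 4523 and 4441 CPM in the TG- mice and at 2173, 1883 and 2103 CPM in the TG+ mice. The TG+ mice lay close together and far below the lowest TG- mouse. The mean was 4300.5 ± 317 CPM in TG- and 2053 ± 151 in TG+ (SD, n = 3 mice each), with a log2 fold change of -1.07 (SE 0.08, adjusted p = 0.000128, edgeR). Reads may be split with the pseudogene Cyp4b1-ps2, since 4.92% of the 51-base windows of Cyp4b1 also occur in its transcripts (9.68% in any other gene), and the pseudogene's own row was lower by a like amount (6.11 ± 0.385 CPM in TG- and 2.87 ± 0.457 in TG+).

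Cyp4a12a (chromosome 4 from 115299046 to 115332815), the main producer of 20-HETE in male mice and an androgen-induced gene, stood at 145, 158 and 169.8 CPM in TG- and at 75.8, 72.4 and 84.0 CPM in TG+ mice. All TG+ mice lay well below all TG- mice, with a log2 fold change of -1.03 (SE 0.08, adjusted p = 0.000155, edgeR). Its neighbour Cyp4a12b shares 48.9% of its windows with it, so their reads cannot be fully told apart, and it stood at 18.6 ± 4.10 CPM in TG- and 14.8 ± 1.47 in TG+ with overlapping groups. The sum of both genes was 176 ± 16.2 CPM in TG- and 92.2 ± 7.35 in TG+, again without overlap.

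Cyp4a14 (chromosome 4 from 115486200 to 115496142), a fatty acid hydroxylase that is a target of PPARα, lay in the opposite direction. It stood at 9.10, 15.5 and 9.97 CPM in TG- and at 23.0, 26.9 and 57.2 CPM in TG+ mice. The groups did not overlap, but mouse 43-75 stood above the other TG+ mice by more than the whole TG- range. The log2 fold change was 1.63 (SE 0.36), with an adjusted p of 0.0143 in edgeR that missed the threshold. Its reads are nearly all its own, with 0.204% of windows shared. It passed under 6 of 14 alternative settings (adjusted p from 0.000189 to 0.0591). The lowest of these came from taking each kidney as its own library, which counts the kidneys of a mouse as separate replicates and so makes p too small.

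Of the other Cyp4a genes none passed. Cyp4a10, also a PPARα target, stood at 58.4 ± 11.6 CPM in TG- and 71.8 ± 13.9 in TG+ (log2 fold change 0.30, adjusted p = 0.230), and Cyp4a31 at 154 ± 31.9 and 176 ± 19.1 CPM (0.19, adjusted p = 0.368, both edgeR), with overlapping groups for both. Cyp4a32, which shares 45.8% of its windows with other genes (34.1% with Cyp4a10), stood at 2.14 ± 0.352 CPM in TG- and 1.07 ± 0.205 in TG+ without overlap, and just missed the threshold (-0.9998, adjusted p = 0.0102 in edgeR, 0.00602 with a replicate block for the pairs of mice in the table's name, and 0.000133 to 0.0393 over 14 alternatives). Cyp4a12a, Cyp4a12b, Cyp4a14, Cyp4a10, Cyp4a31, Cyp4a32 and Cyp4b1 lie next to one another in this order on chromosome 4, between 115299046 and 115647723, with log2 fold changes from -1.07 to 1.63. The ratio of Cyp4a14 to Cyp4a12a CPM was 0.0628, 0.0976 and 0.0587 in the TG- mice and 0.303, 0.371 and 0.681 in the TG+ mice (2-sided exact permutation test, p = 0.1, the smallest that 3 against 3 mice allow, and a pair chosen after the values were seen).

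**Figure D3:**
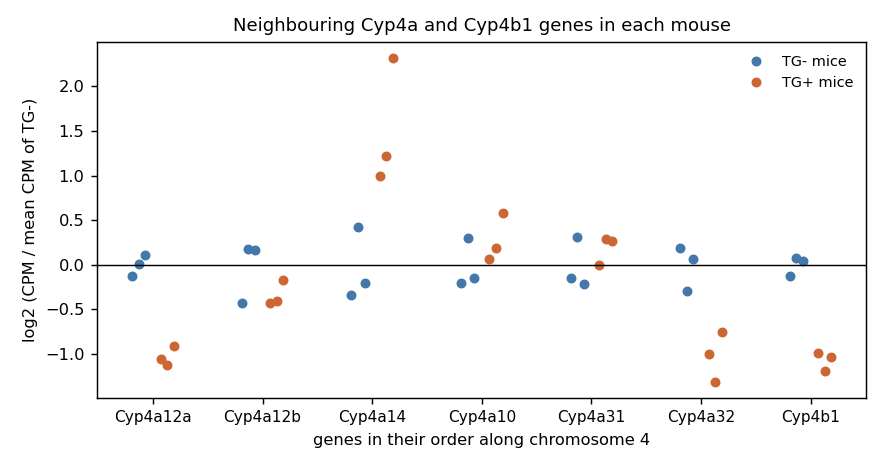
Level of the 7 neighbouring Cyp4a and Cyp4b1 genes in each mouse, as log2 of the CPM over the mean CPM of the TG- mice (vertical axis), in the order of the genes along chromosome 4; blue points are TG- mice and orange points TG+ mice. The TG+ points lie near -1 for Cyp4a12a, Cyp4a32 and Cyp4b1, between the TG- points or just beside them for Cyp4a12b, Cyp4a10 and Cyp4a31, and above all TG- points for Cyp4a14.

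The 6 Cyp4f genes were low, with at most 3.20 ± 0.505 RPKM in TG- (Cyp4f17) and 2.72 ± 0.0176 RPKM in TG+ (Cyp4f13) (RPKM are reads per length of exon and depth, as deposited). Cyp4f15 fell from 1.38, 1.14 and 1.49 CPM in TG- to 0.546, 0.547 and 0.677 CPM in TG+ mice, without overlap (log2 fold change -1.18, SE 0.19, adjusted p = 0.00419, edgeR). That call was lost when any mouse but 43-50 was left out (adjusted p of up to 0.0207) and with kidney 2 alone (0.0165). Cyp4f18, which inactivates leukotriene B4 in white blood cells, rose from 0.721, 0.578 and 1.02 CPM in TG- to 2.22, 1.96 and 1.83 CPM in TG+ mice, also without overlap (1.38, SE 0.22, adjusted p = 0.00411, edgeR). That call was lost when any mouse but 43-76 was left out (adjusted p of up to 0.0155), with kidney 1 alone (0.0127) and with kidney 2 alone (0.0105). The exons of Cyp4f18 overlap Zfp961 on the other strand, whose reads cannot be told apart because the use of strand is not stated. The immune cell markers moved with Cyp4f18, and 11 of the 12 listed rose with a summed level of 325 to 409 CPM in TG- and 1146 to 1827 in TG+ mice, though their part in this value was not tested. Cyp4v3, the ortholog of the human gene mutated in Bietti crystalline dystrophy, with exons that overlap Gm45753 on the same strand, stood at 6.55 ± 0.504 CPM in TG- and 9.46 ± 1.03 in TG+, without overlap, and missed the threshold (0.53, adjusted p = 0.0102 in edgeR, 0.00800 with the replicate block, and 0.000181 to 0.0448 over 14 alternatives).

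The Cyp2 family was the largest, with 26 genes, of which 7 fell, 2 rose and 17 did not pass. Cyp2d9 (chromosome 15 from 82433437 to 82456845), a testosterone hydroxylase that is higher in male mice, had the lowest log2 fold change of the P450 genes, though it lay within 1 SE of that of Cyp4f15 and their order turned without 43-49, 43-50 or 43-75. It stood at 111, 139.7 and 118 CPM in TG- and at 66.7, 45.7 and 48.5 CPM in TG+ mice. The highest TG+ mouse was still far below the lowest TG- mouse (log2 fold change -1.20, SE 0.15, adjusted p = 0.00136, edgeR). Of its windows 28.6% occur in other genes (8.11% in Cyp2d12, the most for a single gene), and its exons overlap Gm27622 and Gm46501 on the same strand, whose reads cannot be told apart from its own. Cyp2d26, a neighbour in the same cluster, stood at 100.3 ± 13.6 CPM in TG- and 108 ± 10.9 in TG+ with overlapping groups (0.11, adjusted p = 0.498, edgeR). The ratio of Cyp2d9 to Cyp2d26 was thus 1.17 to 1.28 in TG- and 0.400 to 0.655 in TG+ mice (2-sided exact permutation test, p = 0.1, the smallest possible, with the pair chosen after the values were seen). Cyp2d22, also of this cluster, rose from 26.96 ± 3.22 to 37.4 ± 2.66 CPM (0.47, SE 0.09, adjusted p = 0.00959, edgeR), a call that was lost without any mouse but 43-26 (adjusted p of up to 0.0422), with kidney 1 alone (0.0140) and with upper-quartile scaling (0.0105).

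Kap, an abundant androgen-responsive mRNA of the proximal tubule, was examined beside the androgen-induced Cyp4a12a and Cyp2d9. It stood at 16957, 17476 and 16790.3 CPM in TG- and at 16905, 14272 and 17366 CPM in TG+ mice, with overlapping groups (log2 fold change -0.08, adjusted p = 0.528, edgeR). Of the 4 androgen-responsive genes listed, 0 passed in edgeR in either direction, 1 lay lower at an unadjusted p below 0.05, and 1 fell by DESeq2's test. The gene with an unadjusted p below 0.05 in edgeR was Slco1a1, which lay in the direction of Cyp4a12a and Cyp2d9. It stood at 602 ± 13.3 CPM in TG- and 456 ± 58.2 in TG+ without overlap (-0.40, adjusted p = 0.0159, edgeR). Odc1 (0.0018) and Gusb (0.02) overlapped between groups, as Kap did.

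Cyp2e1 (chromosome 7 from 140763739 to 140774987), which oxidizes ethanol and acetone, was among the 3 highest P450 mRNAs per length. It stood at 2174, 2383 and 2221 CPM in TG- and at 1484, 1236 and 1344 CPM in TG+ mice. The groups were far apart (2259 ± 109.7 against 1355 ± 124 CPM, log2 fold change -0.74, SE 0.08, adjusted p = 0.000616, edgeR). Cyp2a4 and Cyp2a5, steroid and coumarin hydroxylases, both fell, and 35.2% of the windows of Cyp2a4 occur in Cyp2a5 and 28.5% of those of Cyp2a5 in Cyp2a4. Exons of Gm42375 on the other strand overlap Cyp2a4. Cyp2a4 went from 127 ± 6.78 to 84.2 ± 8.47 CPM (-0.59, adjusted p = 0.00201) and Cyp2a5 from 33.4 ± 5.58 to 17.965 ± 2.50 CPM (-0.89, adjusted p = 0.00368, both edgeR). Their sum, which does not depend on how shared reads were assigned between them, was 149 to 169 CPM in TG- and 94.0 to 114 CPM in TG+ mice. The call for Cyp2a4 was lost without 43-75 or 43-76 (adjusted p of up to 0.0113), and that for Cyp2a5 without 43-26, 43-49, 43-75 or 43-76 (up to 0.0160).

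The 7 Cyp2j genes lie side by side on chromosome 4 between 96027534 and 96664154 and encode epoxygenases of arachidonic acid and related enzymes. Of these, 3 fell and 4 did not pass. Cyp2j5, an epoxygenase of the proximal tubule, had the highest P450 level per length, at 731 ± 9.26 RPKM in TG- and 538 ± 8.05 RPKM in TG+. In reads it stood at 1685, 1724 and 1679.5 CPM in TG- and at 1275, 1265 and 1294 CPM in TG+ mice. Both groups were tight and did not overlap (log2 fold change -0.41, SE 0.05, adjusted p = 0.00106, edgeR). Cyp2j13 fell from 663 ± 17.7 to 439 ± 45.0 CPM (-0.60, adjusted p = 0.00169) and Cyp2j11 from 172 ± 11.8 to 126 ± 6.22 CPM (-0.44, adjusted p = 0.00325, both edgeR). Without 43-76 the adjusted p of Cyp2j13 was 0.01001, just past the limit, and Cyp2j11 lost its call without 43-29, 43-75 or 43-76 (up to 0.0143), with kidney 1 alone (0.0114) and with scaling by library size alone (0.0113). Cyp2j6, a relative in the middle of the cluster, stood at 37.0 ± 1.54 CPM in TG- and 36.7 ± 3.12 in TG+ (-0.01, adjusted p = 0.939), a value of 0.11 when libraries were scaled by size alone. Cyp2j5 and Cyp2j6 share 0.131% and 0.366% of their windows, so few of their reads can be split with relatives.

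Cyp2c23, another arachidonic acid epoxygenase of the kidney, stood at 46.7, 43.97 and 45.8 CPM in TG- and at 41.0, 40.8 and 45.9 CPM in TG+ mice. The groups overlapped (log2 fold change -0.10, SE 0.06, adjusted p = 0.302, edgeR), and the value was 0.02 with scaling by library size alone. The ratio of Cyp2e1 to Cyp2c23 was 46.5 to 54.2 in TG- and 29.3 to 36.2 in TG+ mice (p = 0.1, 2-sided exact permutation test, chosen after the values were seen). Cyp2r1, the microsomal enzyme of the first hydroxylation of vitamin D, stood at 1.88 ± 0.203 CPM in TG- and 1.36 ± 0.367 in TG+ with overlapping groups (-0.47, adjusted p = 0.144, edgeR).

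Cyp2s1 (chromosome 7 from 25802475 to 25816913), an extrahepatic P450 of epithelia that is inducible through the aryl hydrocarbon receptor, was the P450 gene that rose with the lowest adjusted p. It stood at 18.6, 18.9 and 19.5 CPM in TG- and at 63.5, 49.2 and 58.1 CPM in TG+ mice. The TG- mice were nearly equal and every TG+ mouse exceeded 2 times their level (log2 fold change 1.58, SE 0.09, adjusted p = 3.95e-05, edgeR). Per length it moved from 2.09 ± 0.0513 to 6.08 ± 0.753 RPKM, which is still far under the Cyp2e1 level. Exons of Gm26707 on the other strand overlap 6.54% of its windows. Cyp2s1 lies at the edge of a cluster on chromosome 7 whose other members Cyp2b10, Cyp2b9, Cyp2a4, Cyp2a5, Cyp2f2 and Cyp2t4 ran from -0.89 (Cyp2a5) to 0.89 (Cyp2b10, adjusted p = 0.0506 in edgeR).

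**Figure D4:**
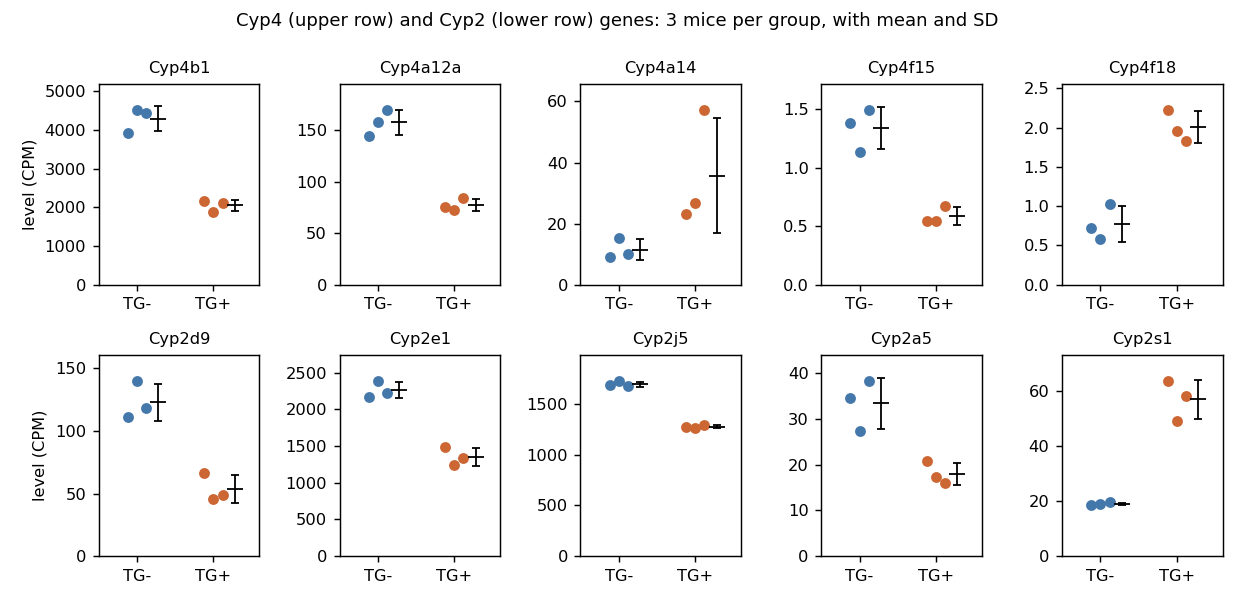
Level in CPM (vertical axes, each from 0) of 5 Cyp4 genes (upper row) and 5 Cyp2 genes (lower row) in each of 3 TG- (blue) and 3 TG+ (orange) mice, with the mean and SD of each group in black. In all 10 panels the groups do not overlap, with TG+ lower for Cyp4b1, Cyp4a12a, Cyp4f15, Cyp2d9, Cyp2e1, Cyp2j5 and Cyp2a5 and higher for Cyp4a14, Cyp4f18 and Cyp2s1.

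The vitamin D genes Cyp24a1 and Cyp27b1 did not separate the groups. Cyp24a1 (chromosome 2 from 170482708 to 170497145, with exons that overlap Pfdn4), which inactivates calcitriol, stood at 318, 274 and 268 CPM in the TG- mice and at 189.7, 439.6 and 572 CPM in the TG+ mice. The 3 TG- mice were close together, whereas the TG+ mouse 43-29 lay below all of them and 43-49 and 43-75 above all of them. The log2 fold change was 0.48 (SE 0.33, adjusted p = 0.328, edgeR). The call depended on 1 mouse, because without 43-29 the log2 fold change was 0.81 with an adjusted p of 0.00593, the only one of 14 alternatives that passed (range 0.00593 to 0.822). The kidneys of a mouse were alike, with 203 and 179 CPM in 43-29, 392 and 498 in 43-49 and 535 and 613 in 43-75.

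Cyp27b1 (chromosome 10 from 127048250 to 127053006), the enzyme that makes calcitriol, stood at 26.9, 12.1 and 8.37 CPM in TG- and at 29.4, 5.15 and 14.6 CPM in TG+ mice. The groups spanned nearly the same range (log2 fold change 0.05, SE 0.61, adjusted p = 0.9605, edgeR), and the sign turned when 43-29, 43-50 or 43-76 was left out. Its level was also alike in both kidneys of each mouse, for example 29.9 and 29.2 CPM in 43-29 and 4.94 and 5.43 CPM in 43-49. Among the TG+ mice the one with the highest Cyp27b1 (43-29) had the lowest Cyp24a1, which was not so among the TG- mice, where 43-26 was highest in both. The ratio of Cyp24a1 to Cyp27b1 ran from 6.44 to 85.4 in TG+ and from 11.8 to 31.998 in TG- mice (2-sided exact permutation test, p = 0.8).

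**Figure D5:**
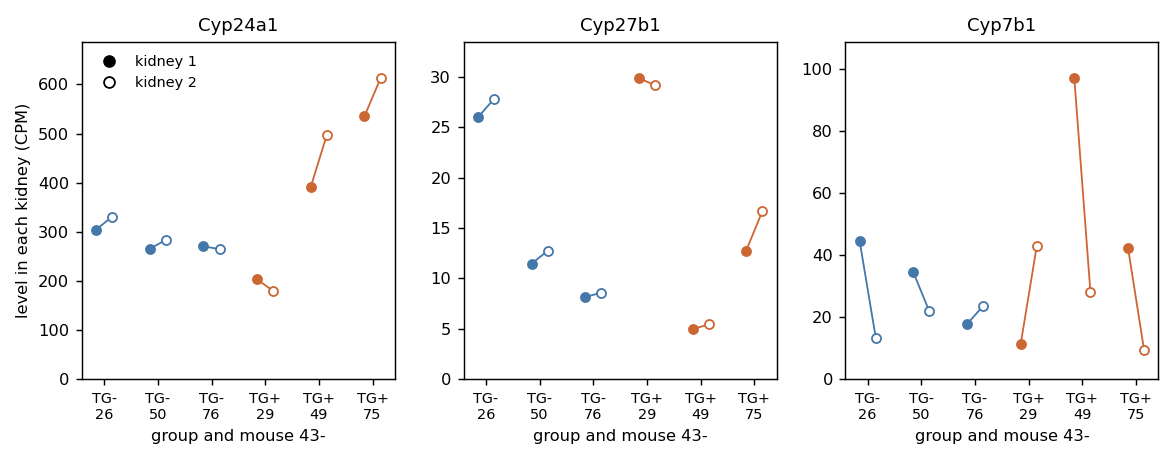
Level in CPM (vertical axes, from 0) of Cyp24a1, Cyp27b1 and Cyp7b1 in each kidney of 6 mice, with kidney 1 filled, kidney 2 open and a line joining the kidneys of a mouse; TG- in blue, TG+ in orange, mice named by the number after 43-. For Cyp24a1 and Cyp27b1 the kidneys of a mouse lie close together and mice differ, whereas for Cyp7b1 the kidneys of a mouse differ by 1.33-fold to 4.54-fold.

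Other genes of vitamin D handling were counted from a list of 13, of which 12 were tested, 1 rose and 3 fell. Of all tested genes 7.91% rose and 4.25% fell. Gc, the plasma vitamin D binding protein, rose from 13.5 ± 1.87 to 95.8 ± 23.8 CPM (log2 fold change 2.83, adjusted p = 7.81e-05, edgeR). The genes that fell were Lrp2 (megalin, which takes that protein up in the proximal tubule, -0.46), Rxra (-0.44) and Pth1r (-0.40), with adjusted p of 0.00213, 0.00139 and 0.00708 in edgeR. Vdr, the vitamin D receptor, stood at 432 ± 63.6 CPM in TG- and 384 ± 56.7 in TG+ with overlapping groups (-0.17, adjusted p = 0.386, edgeR).

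Of 5 P450 genes of sterol and bile acid metabolism, 1 fell. Cyp27a1, the mitochondrial sterol hydroxylase, stood at 44.9, 49.5 and 49.9 CPM in TG- and at 33.8, 36.5 and 35.1 CPM in TG+ mice, without overlap (log2 fold change -0.45, SE 0.06, adjusted p = 0.00204, edgeR). That call was lost without 43-75 or 43-76, with an adjusted p of up to 0.0128. Cyp51, the lanosterol demethylase of cholesterol synthesis, with exons that overlap Akap9 on the other strand, stood at 103 ± 18.5 CPM in TG- and 88.9 ± 13.2 in TG+ (-0.21, adjusted p = 0.349, edgeR). Cyp7b1, the oxysterol hydroxylase, had a mean of 26.4 ± 4.97 CPM in TG- and 39.6 ± 21.3 in TG+ (0.59, adjusted p = 0.233, edgeR), and its kidneys stood at 97.2 and 28.2 CPM in the TG+ mouse 43-49 and at 44.6 and 13.4 CPM in the TG- mouse 43-26. The ratio between kidneys was widest in the TG+ mouse 43-75 (4.54-fold, 42.5 and 9.36 CPM). Cyp39a1 (0.31, adjusted p = 0.114) and Cyp46a1 (-0.03, adjusted p = 0.935, both edgeR) did not pass.

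The remaining families held 6 genes, of which 0 passed edgeR's test, 2 lay higher at an unadjusted p below 0.05, and 1 rose by DESeq2's test. Cyp1b1, which oxidizes estradiol and polycyclic hydrocarbons in mesenchymal and endothelial cells, stood at 38.1, 25.0 and 30.9 CPM in TG- and at 45.8, 48.4 and 49.0 CPM in TG+ mice. Every TG+ mouse was above every TG- mouse, and the log2 fold change of 0.61 missed the threshold (SE 0.13, adjusted p = 0.0144, edgeR). Of 7 endothelial markers listed 6 rose, with a summed level of 355 to 463 CPM in TG- and 617 to 662 in TG+ mice, and their part in the Cyp1b1 value was not tested. Cyp1a1, the classical target of the aryl hydrocarbon receptor, was low, at 0.690 ± 0.0703 and 0.741 ± 0.245 CPM (0.09, adjusted p = 0.843, edgeR). Cyp26b1, which breaks down retinoic acid, ranged from 5.78 to 19.2 CPM in TG- and from 3.31 to 14.2 CPM in TG+ mice (-0.33, adjusted p = 0.708), while Cyp26a1 (0.27), Cyp3a13 (0.35) and Cyp20a1 (0.20) also overlapped between groups.

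Ranked by level per length in TG- mice, Cyp2j5 (731 RPKM), Cyp2e1 (688) and Cyp4b1 (625) exceeded all others and did not overlap one another. The order of these genes rests on narrow gaps. The lowest Cyp2j5 mouse stood at 725.5 and the highest Cyp2e1 mouse at 723.8 RPKM, the lowest Cyp2e1 mouse at 662.2 and the highest Cyp4b1 mouse at 655.8. Of their windows 0.131%, 4.46% and 9.68% occur in other genes, and the effect of split reads on this order was not tested. After a wide gap came Cyp2j11 (90.6), Cyp24a1 (81.6), Cyp2j13 (80.9), Cyp2d9 (75.3) and Cyp2a4 (74.6), each of which overlapped the next over mice except the last. In TG+ mice the first 3 kept their ranks, at 538, 403 and 291 RPKM, Cyp24a1 took the fourth place (112 ± 54.3), and Cyp2d9 went to rank 9 and Cyp4a12a from rank 10 to rank 12. The place of Cyp24a1 did not hold in every mouse. In 43-29 it stood at 52.6 RPKM, below Cyp2j11 (62.2), Cyp2d26 (60.6), Cyp2j13 (57.4) and Cyp2a4 (53.1). A level of at least 10 RPKM was reached by 16 genes in TG- and 18 in TG+, and of at least 1 RPKM by 34 in both.

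Genes that serve P450 enzymes were described from lists by the same test, under which 7.91% of all tested genes rose and 4.25% fell. Of 9 electron donors 2 fell and 1 rose. Cyb5a (log2 fold change -0.49, adjusted p = 0.00965) and Cyb5b (-0.37, adjusted p = 0.00371), the cytochrome b5 genes, fell, and Fdx1 (adrenodoxin, 0.44, adjusted p = 0.00751, edgeR) rose. Por, the P450 oxidoreductase, stood at 366 ± 21.4 CPM in TG- and 304 ± 10.2 in TG+ without overlap, and missed the threshold (-0.27, adjusted p = 0.0165, edgeR). Of 12 genes of heme synthesis and breakdown 5 fell (Cpox, Blvra, Uros, Alad and Fech, from -0.59 to -0.32) and 1 rose, the heme oxygenase Hmox1, from 43.9 ± 10.6 to 90.7 ± 19.2 CPM (1.05, adjusted p = 0.00767, edgeR).

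Among 15 receptors and sensors that act on P450 genes, 14 were tested, Ahr rose and Rxra fell. The shares over all tested genes were 7.91% that rose and 4.25% that fell, for this list and those that follow. Ahr, the aryl hydrocarbon receptor, stood at 9.98, 9.45 and 9.44 CPM in TG- and at 12.9, 12.3 and 12.3 CPM in TG+ mice (log2 fold change 0.38, adjusted p = 0.00664, edgeR). Ppara stood at 95.4 ± 21.4 CPM in TG- and 65.0 ± 8.25 in TG+ (-0.55, adjusted p = 0.0405, edgeR). Of 10 PPARα targets outside P450, Acaa1b (-0.81) and Cpt1a (-0.51) fell and Fabp1 (1.39) rose. Fabp1 was low, at 0.517 ± 0.139 CPM in TG- and 1.36 ± 0.333 in TG+. Of 12 eicosanoid enzymes outside P450, Ephx2, which hydrolyses the epoxides that Cyp2j and Cyp2c enzymes form, fell from 473 ± 38.3 to 339 ± 16.98 CPM (-0.48, adjusted p = 0.00316, edgeR). Ephx1 (1.29, adjusted p = 9.73e-06) and Alox15 (3.82, adjusted p = 0.000129, edgeR) rose.

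Markers of other cells moved with the groups, and their part in the P450 values was not tested. The counts below stand beside 7.91% of all tested genes that rose and 4.25% that fell. Of 20 proximal tubule markers 8 fell and 0 rose in edgeR (0 higher at an unadjusted p below 0.05, and 0 by DESeq2), with a median log2 fold change of -0.35, and Slc22a6 (-1.09), Slc22a8 (-0.86), Acsm2 (-0.85) and Slc34a1 (-0.76) fell most. Slc7a13 (-0.75, SE 0.07) lay within 1 SE of Slc34a1 (SE 0.06). Of 10 markers of other nephron segments 0 passed in edgeR (3 higher at an unadjusted p below 0.05, 1 by DESeq2), with a median of 0.10. Of 8 stromal markers 2 rose, and of 9 tubule injury markers 3 rose, with Havcr1 at 2.94 ± 2.14 CPM in TG- and 20.4 ± 7.01 in TG+. Of liver mRNAs outside P450, 2 of 7 tested rose, Apoa1 (3.64) and Ttr (1.42). Apoa1 was low, at 0.158 ± 0.152 CPM in TG- and 2.06 ± 0.0627 in TG+, with 3 reads in its lowest mouse. Of adrenal mRNAs 2 of 6 tested rose in edgeR (Akr1b7, 0.93, and Scarb1, 0.64). At an unadjusted p below 0.05, 4 lay higher and 1 lower. Mc2r (1.49, adjusted p = 0.0180) and Mrap (0.98, adjusted p = 0.0484, both edgeR) lay higher without overlap but missed the threshold. Both were low, with means of 0.141 and 0.228 CPM in TG- and 0.397 and 0.450 in TG+. The adrenal regulator Nr5a1 was at 0 in all mice but 43-26 (0.0195 CPM). The P450 genes of steroid synthesis that mark adrenal cortex, Cyp11b1, Cyp11b2 and Cyp21a1, had 0 reads over 314074137 reads in all, which allows up to 0.00955 CPM (3 reads of that total, counting error only). Cyp11a1 (28 reads in TG+, 4 in TG-) and Cyp17a1 (19 and 21 reads) were under the limit of 50 reads, as were Cyp1a2, Cyp7a1 and Cyp3a11 of liver (1, 0 and 29 reads in all).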

How the data were processed

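The authors sequenced 51-base single-end reads from TruSeq libraries of kidney cortex RNA and deposited a table of read counts per Ensembl gene for 12 libraries, together with RPKM values scaled by the authors. RPKM values were proportional to the count plus 1 (within 1% for 100% of genes). The submitters' processing notes name mm9, and the study's methods name the Tuxedo tools for most of the analysis. The versions, the step that gave the deposited counts and the use of strand are not given in the sources used here. The table's 12 log2 RPKM columns and the authors' own averages, fold changes, p-values and q-values were not used. Symbols and positions came from GENCODE M21 (GRCm38), matched by identifier for 32642 of 37681 rows.

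Counts of both kidneys of a mouse were summed (3 against 3 mice), filtered with filterByExpr, scaled by TMM (factors 0.944 to 1.07) and tested with edgeR 4.0.16 (limma 3.58.1, R 4.3.3; quasi-likelihood test) with adjustment by Benjamini-Hochberg over 19399 genes. Genes passed at an adjusted p below 0.01, and the stricter count also asked for a change of more than 2 times up, or to less than 0.5 of the TG- level. Between genes, levels were compared as deposited RPKM averaged per mouse. Single ratios were tested by an exact permutation test over 20 assignments. Shared sequence was counted as 51-base windows of a gene's transcripts that occur in another gene. The procedure was tested on simulated data. DESeq2 1.42.0 and the other alternatives are described with their effect. Python 3.11.15 with pandas 2.3.3, numpy 2.4.6, scipy 1.17.1 and matplotlib 3.10.9 was used.

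Members followed the rule stated at the start. Named were Cyp24a1, Cyp27b1, every member past the threshold, the member highest in RPKM and those with the lowest and highest log2 fold change of each family, and, from 15 lists with 158 entries in all, those past the threshold (at most 4 per list in values) plus Por, Ppara, Vdr, Ahr, Ephx2 and Kap. The immune, endothelial and stromal lists were given without gene names, and of the tubule injury list only Havcr1 was named. Other genes were chosen after their values were seen. The members and lists were chosen with earlier results of these data known.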

Additional observations from a re-analysis of the deposited data

Results flagged for a closer look

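In each group the 6 libraries of each of the 53 genes were examined for a library whose gap to its nearest neighbour was large for the group's range (Dixon's 95% critical value), and 3 of 106 groups had one. About 1 in 20 is picked by chance, and the kidneys of a mouse are not independent. Cyp2d11 stood at 2.89 CPM in kidney 1 of the TG+ mouse 43-49, below 3.68 to 4.14 in the other TG+ libraries. Cyp2j9 stood at 15.4 CPM in kidney 1 of the TG- mouse 43-76, above 11.8 to 13.1 in the other TG- libraries. Cyp26a1 stood at 0.124 CPM in kidney 2 of the TG- mouse 43-76, below 0.404 to 0.531 in the others. None of the 3 genes passed the threshold in edgeR.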

How the results depend on the processing

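With 3 mice a group, an exact permutation test cannot go below 0.1. Under all 14 alternatives Cyp2d9, Cyp2e1, Cyp2j5, Cyp2s1, Cyp4a12a and Cyp4b1 kept their calls. Fits of kidneys as single libraries or of 1 kidney alone tested 49 of the 53 genes. Scaling by library size alone moved the median of all genes from 0.01 to 0.13. The cause of the shifts below was not tested. The number of P450 genes that rose (3) was 6 with DESeq2, with no filter on low counts, with library size scaling and at an adjusted p below 0.05, 7 with each kidney as a library (which counts the kidneys of a mouse as separate replicates and makes p too small), 5 with kidney 2 alone, 1 with kidney 1 alone, and 1 to 3 when a mouse was left out. At the stricter threshold it (2) was 1 with kidney 1 alone and 1 to 2 without a mouse. It was 3 with DESeq2, each kidney as a library, no filter on low counts, library size scaling and an adjusted p below 0.05. The number that fell (11) ran from 5 to 11 without a mouse. It was 10 with 1 kidney alone or library size scaling, and 12 with no filter or upper-quartile scaling. With DESeq2, each kidney as a library, the replicate block or an adjusted p below 0.05 it was 13. At the stricter threshold the number that fell (4) ran from 2 to 5 without a mouse. It was 2 with library size scaling, 3 with 1 kidney alone, and 5 with DESeq2, no filter, the replicate block or upper-quartile scaling. The P450 median (-0.22) was -0.23 with DESeq2, -0.15 with each kidney as a library, -0.16 with kidney 1 and -0.13 with kidney 2 alone, -0.10 with library size scaling, and -0.23 to -0.15 without a mouse. Signs turned for genes that did not pass. Without a mouse the log2 fold change ran from -0.080 to 0.348 for Cyp1a1, -0.112 to 0.524 for Cyp2c69, -0.057 to 0.049 for Cyp2j6, -0.856 to 0.322 for Cyp26b1, -0.112 to 0.045 for Cyp46a1 and -0.686 to 0.674 for Cyp27b1. With kidney 1 alone it was -0.122 for Cyp26a1 and 0.00029 for Cyp46a1, with kidney 2 alone -0.012 for Cyp1a1 and 0.028 for Cyp2j6, and with library size scaling 0.022 for Cyp2c23, 0.111 for Cyp2j6 and 0.0957 for Cyp46a1.

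The name of the deposited table speaks of 3 pairs and lists mice 26 and 29, 49 and 50, and 75 and 76, but the labels give no pairing. Deviations from the group means correlated at 0.337, 0.296 and -0.0236 within these pairs, which does not settle whether the pairs share more than a place in that name. With a replicate block for the pairs 4 P450 genes rose and 13 fell. Cyp4v3 (adjusted p = 0.00800), Cyp4a32 (0.00602) and Cyp2f2 (0.00805, edgeR) passed under the block and not without it, and Cyp27b1 lay at -0.066.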

Other observations

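Cyp7b1 differed between the kidneys of a mouse more than any other P450 gene above 1 CPM. The ratio of kidney 1 to kidney 2 was 3.32, 1.58 and 0.751 in the TG- mice 43-26, 43-50 and 43-76, and 0.261, 3.45 and 4.54 in the TG+ mice 43-29, 43-49 and 43-75. Among 12291 tested genes with a mean of at least 5 CPM, 47 had an SD of the log2 kidney ratio of at least 0.5 over the 6 mice, and the 5 whose ratios were most like those of Cyp7b1 (by Pearson correlation, a search made after the values were seen) were Serpina1f, Irx1, Slc22a7, Slc22a13 and Slc22a19. Irx1 is a transcription factor, and Slc22a7, Slc22a13 and Slc22a19 are organic anion transporters of the tubule. The ratio of kidney 1 to kidney 2 ran from 0.240 to 5.18 for Serpina1f, from 0.461 to 1.84 for Irx1, from 0.574 to 1.75 for Slc22a7, from 0.424 to 3.32 for Slc22a13 and from 0.587 to 1.87 for Slc22a19. None of the 5 passed the threshold between TG+ and TG- in edgeR (log2 fold changes from 0.17 to 0.86, adjusted p from 0.0428 to 0.611).

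Of the P450 rows under 50 reads, 18 of 45 had 0 reads in all libraries. Among the 14 pseudogene rows, Cyp2d41-ps had the most reads (1724 in all, 674 in TG+ and 1050 in TG-), followed by Cyp4b1-ps2 (1406 in all, 446 and 960).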
